A study of Mus musculus with 2 samples.

Results

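Solute carriers are membrane proteins that move ions, metals, nucleotides, vitamins and metabolites into cells or between organelles, and the mouse genes that encode them carry symbols that begin with Slc. The genes described here are those of all Slc families except Slc1, Slc2, Slc3, Slc7, Slc16 and Slc38, which hold most carriers of amino acids, glucose and lactate. A gene was kept if its probe set with the highest mean reached the median of all probe sets on at least 1 array, a level called the floor. Of 285 genes of these families with a value, 167 met that rule, and 118 did not. The array measured 17097 genes in all, of which 10541 reached the floor. The members were thus chosen by their measured levels on these arrays, and the levels are given as a description. Of the 167, 155 reached the floor on both arrays. A member at the floor on only 1 array reads higher on that array, so the rule fixed the sign of its difference.

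RNA was taken from CD4 T cells of C57/Bl6 mice, 6 weeks old, that carry a Foxp3-eGFP reporter in both groups. Naive Foxp3-negative cells were sorted and activated for 48 hours by soluble antibody to CD3, which triggers the T cell receptor. The antigen-presenting cells (APC) were splenocytes depleted of T cells and treated with 50 ug/ml mitomycin C, and their donors were either wild type (Wt) or carried a transgene for OX40L (OX40L-Tg), the ligand of the costimulatory receptor OX40. Living CD4 T cells were sorted again before extraction, and 1 array was made for each kind of APC. The promoter of the transgene and the number of mice are not given in the sources used here. With 1 array per group no spread between cultures was measured and no difference was tested.

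Both arrays had a median of 14.7 units, and they correlated with r = 0.993 on the log2 scale over 45141 probe sets. A background level was set at the 95th percentile of 51 genes typical of other organs, which came to 34.2 units for Wt APC and 36.3 units for OX40L-Tg APC. T cell markers were present, with Cd4 at 1409.9 and 1143 units, and 8 of 9 read lower with OX40L-Tg APC, with summed levels of 24276 and 20675 units. MHC class II genes of APC summed to 2699.6 and 3605 units, B cell genes to 697 and 949 units, and 9 of 11 dendritic cell and macrophage genes were below background on both arrays. The extraction protocol names adipose tissue, but all 4 adipocyte genes with a value were below background. In such bulk RNA, fewer cells of a type and less RNA per cell cannot be told apart. In each pair of values the Wt APC array comes first, and a positive log2 difference means a higher value with OX40L-Tg APC.

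An activated T cell enlarges, divides and builds mitochondria, which raises its need for phosphate, nucleosides, metals and cofactors. Most carriers of the Slc25 family sit in the inner mitochondrial membrane, and most of the Slc35 family in the Golgi and endoplasmic reticulum. Those of the Slc39 and Slc30 families bring zinc into and out of the cytosol. Other members work at the plasma membrane or in lysosomes.

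Most of these carriers differed by less than 1.5-fold between the kinds of APC, as did most genes at the floor. These were 153 of the 167 members, beside 9781 of all 10541 genes at the floor. The median size of the difference, without its sign, was 0.20 for the members and 0.14 for all genes at the floor. A 2-fold higher value or more with OX40L-Tg APC was found for 3 members, Slc15a3, Slc17a6 and Slc49a4, against 1.56% of all genes at the floor. At least 2-fold lower was 1 member, Slc46a3, against 1.17% of all genes, and both of its values were below background. It reached the floor only with Wt APC. At a size of 1.5-fold, 9 members were higher and 5 lower, against 3.85% and 3.36% of all genes. Those counts are 5.39% and 2.99% of the members, near the share over all genes. Of the 5 lower, Slc46a3, Slc9b2 and Slc5a5 were below background on both arrays. Slc46a3 and Slc5a5 reached the floor only with Wt APC, so the rule fixed their signs. Slc30a2 among the higher and Slc8b1 among the lower were below background on 1 array, with lower bounds of 1.36-fold and 1.33-fold. The median difference of the members was 0.09, beside 0.02 over all genes at the floor, and 109 members (65.3%) read higher with OX40L-Tg APC, beside 54% of all genes. The 123 members above background on at least 1 array had a median of 0.12, and the 44 below background on both arrays had a median of 0.02.

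**Figure D1:**
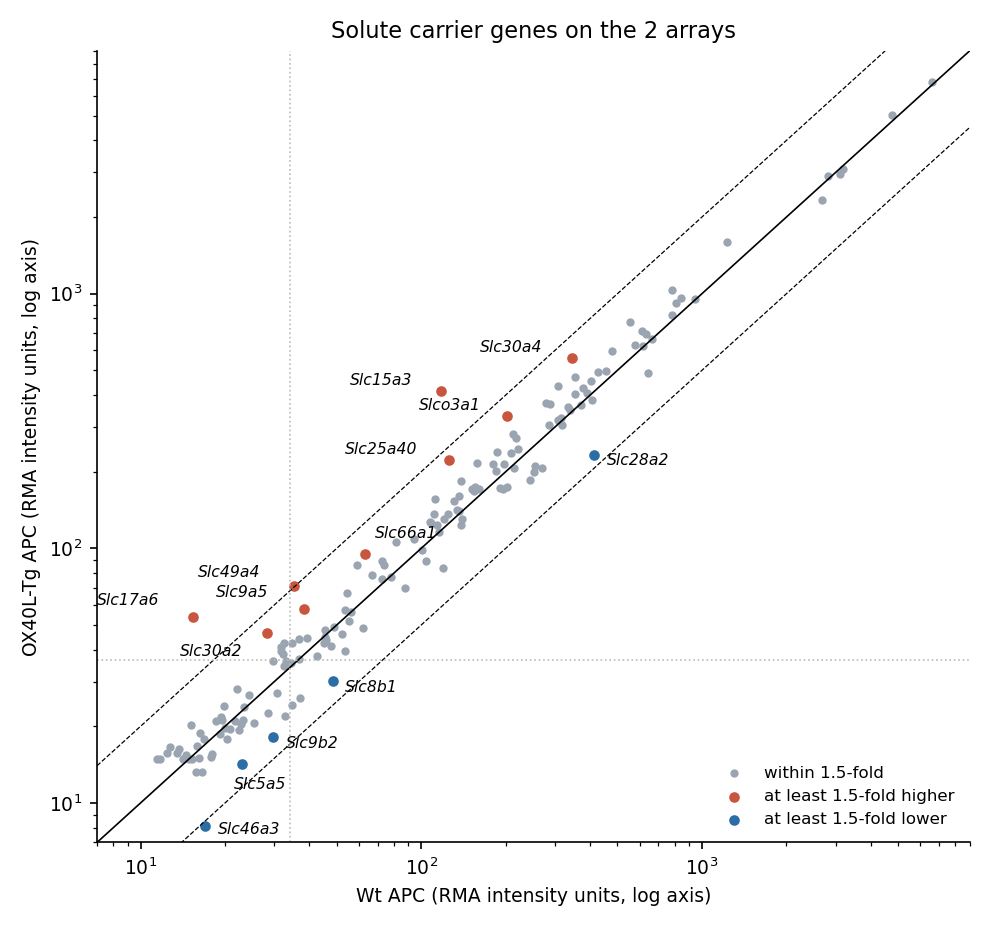
Each point is 1 of the 167 solute carrier genes, with its RMA intensity on the Wt APC array (x axis) and on the OX40L-Tg APC array (y axis), both on log axes; the solid line is equality, the dashed lines are 2-fold and the dotted lines are the background levels of 34.2 and 36.3 units. The 9 higher and the 5 lower genes past 1.5-fold by the plain ratio are named, and Slc15a3 and Slc17a6 lie farthest above the line of equality.

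Slc15a3, Slc17a6 and Slc49a4 had the largest positive differences. Slc15a3, a lysosomal carrier of histidine and small peptides, read 118 and 414 units, which is 3.52-fold higher with OX40L-Tg APC. It rests on 1 probe set, and both values were above background. Slc15a3 is known from macrophages and dendritic cells, and on the same arrays Cd68, a macrophage gene, read 20.5 and 29.002 units, Csf1r 13.97 and 12.95 units, and Lyz2 7.40 and 7.52 units, all below background. The 11 dendritic cell and macrophage genes summed to 219.8 and 237 units. Of the 6 at the floor 4 were higher, with a median of 0.30, from 0.52 for Zbtb46 to -0.16 for Mpeg1, and Flt3 and Mpeg1 were the 2 above background. MHC class II genes at the floor were higher in 6 of 6, with a median of 0.46, and Ciita, their transactivator, was below the floor. The part of APC transcripts in the value of Slc15a3 was not tested. Its relative Slc15a4, also lysosomal, read 136 and 161 units. Slc49a4, which encodes a lysosomal membrane carrier, read 35.1 and 71.4 units, 2.03-fold higher, with its Wt APC value just above background. Slc66a1, which exports cationic amino acids from lysosomes, read 62.9 and 94.6 units, 1.503-fold higher. Slc17a9, the vesicular nucleotide carrier that loads ATP, read 59.0 and 86.2 units, a difference of 0.55. The lysosomal carriers Slc17a5, which exports sialic acid, and Slc36a1, which exports small amino acids with protons, differed by 0.14 and -0.06, the former with both values below background.

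Slc17a6, the vesicular glutamate carrier VGLUT2 of neurons, read 15.4 and 53.6 units. The first value was below background, so the gene was at least 1.57-fold higher. Its other probe set read 10.3 and 13.2 units, below the floor on both arrays, and did not show a difference of that size. In the plot of both arrays by gene, the lower point of Slc17a6 lies left of the background band, and that of Slc15a3 lies well to its right.

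**Figure D2:**
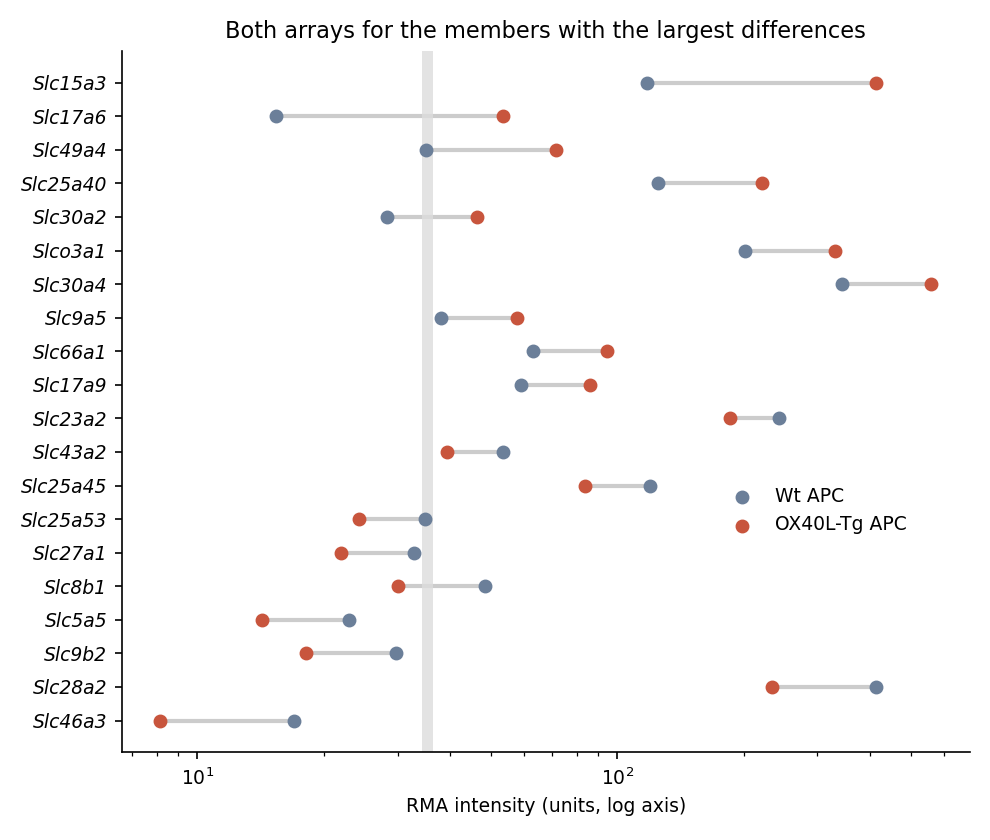
The 10 members with the largest positive and the 10 with the largest negative difference whose probe sets at the floor shared a sign, with the Wt APC value in blue-grey and the OX40L-Tg APC value in red, in RMA intensity units on a log axis. The grey band spans the background levels of both arrays, from 34.2 to 36.3 units. Slc46a3, Slc9b2, Slc5a5 and Slc27a1 lie below it on both arrays. Slc46a3 and Slc5a5 reached the floor only with Wt APC, so the rule fixed their signs.

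The promoter of Slc49a4 is shown because it held matches to each of the 4 motifs searched, those of factors that act in activated or stressed T cells or at lysosomal genes. Searched on both strands of the window from 250 bases before to 50 after the start were AP-1 (TGANTCA), the E-box (CACGTG), the ATF4 composite element (TGATGNAA) and the NF-kB consensus. The sequence is from RefSeq, build GRCm38.p6, chr16:35769321-35769620 on the minus strand, and capitals mark the matches.
Slc49a4: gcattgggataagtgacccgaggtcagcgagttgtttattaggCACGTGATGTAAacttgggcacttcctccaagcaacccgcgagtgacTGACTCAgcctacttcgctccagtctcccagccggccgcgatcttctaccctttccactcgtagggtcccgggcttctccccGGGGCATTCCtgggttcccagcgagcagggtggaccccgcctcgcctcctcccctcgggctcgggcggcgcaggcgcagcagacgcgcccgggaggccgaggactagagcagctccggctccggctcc
In it the E-box overlaps the ATF4 match, the AP-1 match begins 160 bases before the start, and the NF-kB match begins 78 bases before it. RefSeq windows were at hand for 130 of the 167 members, 177 windows in all. Of these, 15.3% held the E-box, beside 7.15% of all 32851 windows and 9.84% of the windows of genes at the floor. The AP-1 letters were in 5.65% of the members' windows, 7.81% of all and 5.15% of those of genes at the floor. For the ATF4 letters these shares were 2.26%, 3.97% and 2.26%, and for the NF-kB consensus 6.21%, 4.51% and 5.19%. The 25 members with an E-box had a median difference of 0.12, and the 105 without had one of 0.07. A match is a run of letters and shows no binding.

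**Figure D3:**
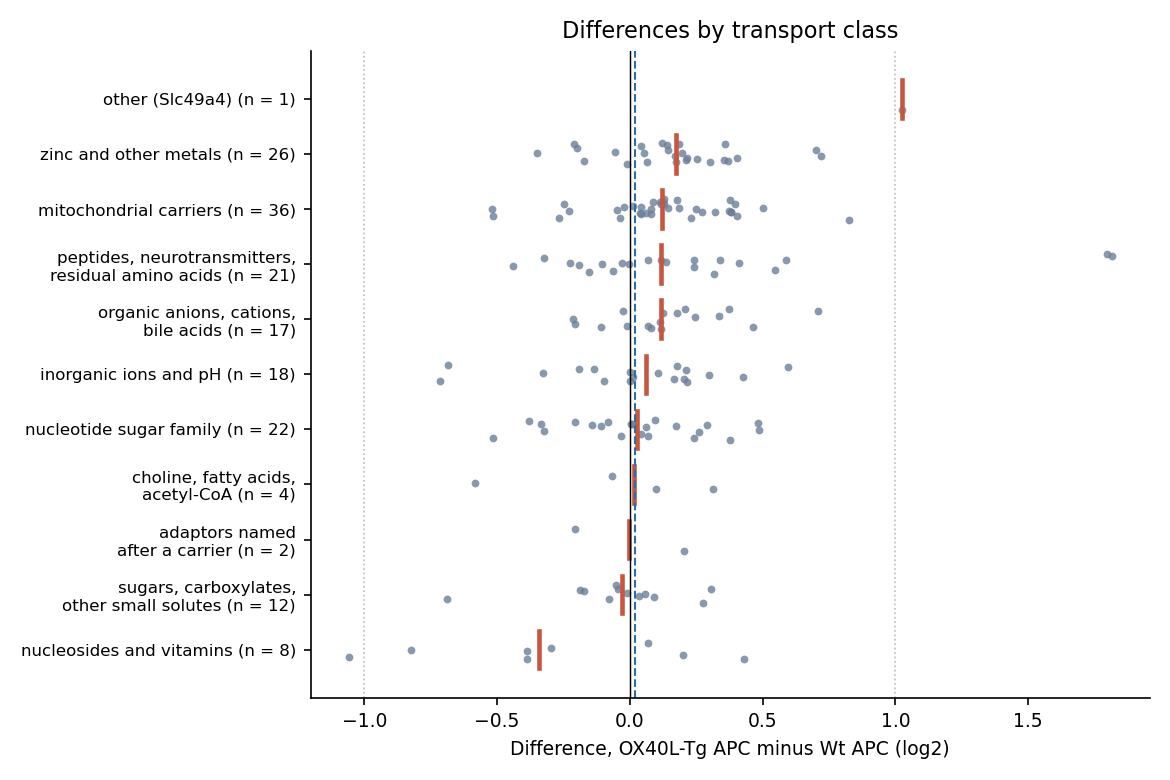
Each point is the difference of 1 member, OX40L-Tg APC minus Wt APC in log2 units, in its transport class, with small vertical shifts to separate points. Red bars are class medians, the dashed line is the median of all genes at the floor (0.02), and the dotted lines are 2-fold; the medians run from -0.34 for nucleosides and vitamins to 0.17 for metals, apart from the single gene Slc49a4.

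Among the mitochondrial carriers, 36 of 40 Slc25 genes with a value were at the floor. Of the 36, 28 (77.8%) read higher with OX40L-Tg APC, beside 54% of all genes at the floor. Slc25a35, higher, and Slc25a23, lower, reached the floor on only 1 array, so the rule fixed their signs. The median was 0.12, also with the floor on both arrays. At least 1.5-fold higher was 1 gene (2.78%), beside 3.85% of all genes at the floor. That gene was Slc25a40, a carrier of glutathione into mitochondria, which read 125 and 222 units, 1.77-fold higher. Its paralog Slc25a39, of the same function, read 3175 and 3097 units, and its 4 probe sets ranged from -0.04 to 0.25. Slc25a30, an inner membrane carrier related to the uncoupling proteins, read 306 and 433 units, and its 4 probe sets at the floor lay between 0.42 and 0.70. Both aspartate-glutamate carriers of the malate-aspartate shuttle were higher, Slc25a12 at 1225 and 1594 units and Slc25a13 at 139 and 184 units, although the dimmer probe set of Slc25a12 differed by only 0.12.

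The carriers that serve oxidative phosphorylation read high on both arrays and differed little. Slc25a5, an ADP/ATP carrier, read 6589.8 and 6761 units, and Slc25a4, another one, 2823 and 2907 units. Slc25a3, the phosphate carrier, read 4750.5 and 5022 units, with -0.16 in its other, dim probe set. The probe sets of Slc25a5 are marked as able to bind related sequences, and near-identical copies of this gene may add to them. Levels of different genes come from different probes and are not set against each other.

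Other mitochondrial carriers differed in both directions. Slc25a33, which imports pyrimidine nucleotides, read 213 and 280.1 units, and Slc25a36, of the same function, differed by 0.12 and 0.48 in its probe sets. The iron importers mitoferrin 1 and mitoferrin 2, Slc25a37 and Slc25a28, differed by 0.32 and 0.13. Of 4 erythroid marker genes at the floor 1 was higher and 3 lower. Hba-a1, the alpha globin gene, read 1161 and 207 units, a difference of -2.49. Epor differed by 0.34 with its Wt APC value below background, and Alas2, Klf1 and Ermap were below background on both arrays. Slc25a38, which supplies glycine for heme, differed by 0.13, Slc25a32, a carrier of folate, by 0.14, and Slc25a1, the citrate exporter, by 0.18. Slc25a45, a carrier of the family, was lower, at 120 and 83.7 units. Slc25a53, also of the family, read 34.8 and 24.2 units, the first just above background and the second below it, so no fold is given. Its other probe set at the floor differed by -0.02. Slc25a24, the calcium-regulated ATP-Mg/phosphate carrier, differed by -0.27, and Slc25a44, a carrier of branched-chain amino acids, by -0.23. Of 11 other genes of mitochondrial transport at the floor 4 read higher, with a median of -0.04, and Mcu, the calcium uniporter, differed by -0.47. Slc8b1, which returns calcium from mitochondria in exchange for sodium, read 48.4 and 30.1 units, at least 1.33-fold lower. The carriers Slc25a29 and Slc25a47 were the only members that are adjacent protein-coding genes in the RefSeq order, on chromosome 12, and they differed by 0.08 and 0.38 near background.

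**Figure D4:**
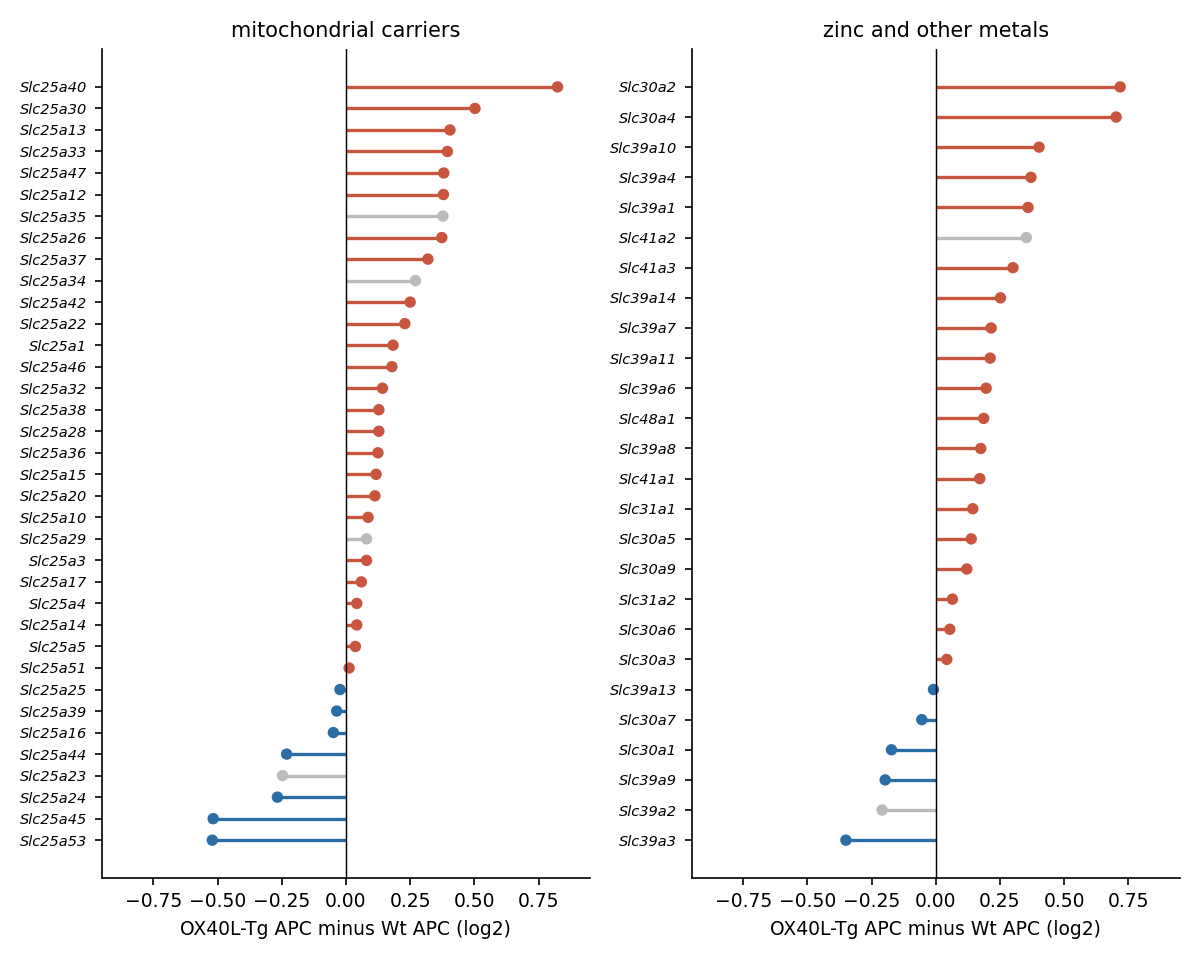
Differences of the 36 mitochondrial carriers and the 26 carriers of zinc and other metals, OX40L-Tg APC minus Wt APC in log2 units, with members below background on both arrays in grey. In each panel most genes lie to the right of 0, 28 of 36 and 20 of 26, beside 54% of all genes at the floor. By the plain ratio 1 and 2 of them reach 1.5-fold. The rule fixed the signs of Slc25a35, Slc25a23 and Slc41a2, which reached the floor on only 1 array.

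Carriers of zinc and other metals read slightly higher with OX40L-Tg APC in most members. Of 26 at the floor, 20 (76.9%) were higher, beside 54% of all genes at the floor. The 20 include Slc41a2, which reached the floor only with OX40L-Tg APC, so the rule fixed its sign. The median was 0.17, also with the floor on both arrays. By the plain ratio 2 (7.69%) were higher by at least 1.5-fold and 0 were lower by as much. Over all genes at the floor these shares were 3.85% and 3.36%. Slc30a4, a zinc carrier of endosomes and vesicles, read 344 and 559.7 units, 1.63-fold higher. Slc30a2, a vesicular zinc carrier known from the mammary gland, read 28.2 and 46.4 units, at least 1.36-fold higher. Slc30a1, the zinc exporter of the plasma membrane, read 42.4 and 37.6 units, and the Golgi zinc carriers Slc30a5 and Slc30a7 differed by 0.14 and -0.05.

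The zinc importers of the Slc39 family were higher in 8 of 12 (66.7%), beside 54% of all genes at the floor. Their median was 0.20, with no member past 1.5-fold. Slc39a10, an importer of the plasma membrane that lymphocytes use, read 783 and 1035 units, and its probe sets differed by 0.40 and 0.46. Slc39a6, its partner, read 840 and 962 units. Slc39a4 and Slc39a1, both plasma membrane importers, differed by 0.37 and 0.36, and Slc39a14, which also takes up iron, by 0.25 with 3 probe sets from 0.22 to 0.28. Slc39a7, which releases zinc from the endoplasmic reticulum, differed by 0.22. Slc39a3, a further importer, was lower, at 61.9 and 48.5 units. Mt1, the zinc-binding metallothionein 1, was level at 1439 and 1440 units. Mtf1, the zinc-sensing factor, read 118 and 100.4 units, a difference of -0.24. Of the 6 zinc and copper genes outside the Slc families 3 were higher, and of the 8 iron and heme genes 7 were higher, with medians of -0.01 and 0.11 and none past 1.5-fold. The copper importer Slc31a1 differed by 0.14, the magnesium carrier Slc41a1 by 0.17, and Slc48a1, which carries heme out of lysosomes, by 0.19. The other probe set of Slc31a1 read 192 and 182 units, a difference of -0.08. MHC class II genes had a median of 0.46 in the same comparison, and their part in the values of the metal and mitochondrial carriers was not tested.

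Carriers of nucleosides and vitamins had a median of -0.34. Of 8 at the floor 5 were lower and 3 (37.5%) higher, beside 54% higher among all genes at the floor. Slc46a3, lower, and Slc29a2, higher, reached the floor on only 1 array, so the rule fixed their signs. This class was small, and its median depended on which probe sets and floor were used. Slc28a2, which takes up purine nucleosides with sodium, read 413 and 233 units, which is 1.77-fold lower with OX40L-Tg APC, both well above background. It had the largest negative difference of the members above background. Slc29a1, the equilibrative nucleoside carrier ENT1, read 641 and 489 units. Slc23a2, which takes up ascorbate, read 243 and 186 units, with -0.39 and -0.30 in its probe sets. Slc46a3, a lysosomal carrier of the folate family, read 16.98 and 8.15 units, both below background, so no fold is given. T cell markers were lower on the same array, with a median of -0.30, and the part of that shift in these values was not tested.

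In the opposite direction, Slc19a1, the reduced folate carrier, read 428 and 492 units. Slc19a2, the thiamine carrier, read 277 and 373 units, but its other probe set read 65.0 and 60.8 units. Enzymes that use folates and nucleosides had a median of 0.05, with 4 of 7 higher. Of these, Dck, which phosphorylates deoxycytidine, differed by -0.29 and Ada, adenosine deaminase, by 0.24.

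The promoters of a higher and a lower member show how unlike the start regions of these carriers are in CG content, with CG pairs in capitals. Slc25a40 had the largest positive difference among the mitochondrial carriers and Slc28a2 the largest negative one among members above background. They are from RefSeq, build GRCm38.p6, at chr5:8422588-8422887 and chr2:122426185-122426484, both on the plus strand.
Slc25a40: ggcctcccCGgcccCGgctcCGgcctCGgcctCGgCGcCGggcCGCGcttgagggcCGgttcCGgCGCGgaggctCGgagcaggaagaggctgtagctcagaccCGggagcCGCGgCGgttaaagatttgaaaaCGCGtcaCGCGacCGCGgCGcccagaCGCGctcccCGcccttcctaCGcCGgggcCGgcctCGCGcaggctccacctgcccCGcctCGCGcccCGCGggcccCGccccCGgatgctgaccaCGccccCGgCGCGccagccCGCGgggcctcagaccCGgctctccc
Slc28a2: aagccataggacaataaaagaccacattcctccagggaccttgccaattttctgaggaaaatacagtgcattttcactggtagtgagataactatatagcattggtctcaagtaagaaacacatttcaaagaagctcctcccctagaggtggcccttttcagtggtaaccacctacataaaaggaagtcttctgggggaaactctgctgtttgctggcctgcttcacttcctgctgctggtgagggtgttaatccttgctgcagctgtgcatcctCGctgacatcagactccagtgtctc
The first holds 47 CG pairs and the second 1, beside a median of 17 over the members' windows and 20 over those of all genes at the floor. None of the 4 motifs was found in either window.

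Carriers of inorganic ions, which set cell volume and pH, had a median of 0.06. Of 18 at the floor, 12 (66.7%) were higher, beside 54% of all genes at the floor. Slc9a9, among the lower, reached the floor only with Wt APC, so the rule fixed its sign. With the floor on both arrays the class median was 0.11. Slc12a2, the sodium-potassium-chloride importer NKCC1, read 352 and 405 units, with 3 probe sets from 0.20 to 0.35. The potassium-chloride exporters Slc12a4 and Slc12a7 differed by 0.30 and 0.11, and the chloride-bicarbonate exchanger Slc4a2 by 0.21. The other probe set of Slc12a7 differed by -0.02. Stk39, the kinase SPAK that activates NKCC1, read 740.1 and 435 units, and genes of chloride, sodium and volume control outside the Slc families were lower in 7 of 11. Slc20a1, the phosphate importer PiT1, was level at 943 and 951 units. Slc20a2, its relative, differed by 0.22, with -0.16 in its other probe set. Slc9a5, a sodium-proton exchanger known from brain, read 38.1 and 57.6 units, 1.51-fold higher and close to background. Slc9b2, another sodium-proton exchanger, read 29.7 and 18.1 units, both below background.

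The Slc35 family, which carries nucleotide sugars into the Golgi and endoplasmic reticulum, was spread evenly about 0. All 22 of its genes at the floor were within 1.5-fold, 13 higher and 9 lower, with a median of 0.03. Slc35b1, which brings ATP into the endoplasmic reticulum, read 553 and 774 units, and Slc35d3, known for a role in platelet granules, 112 and 157 units. Slc35a2, the UDP-galactose carrier, read 81.3 and 105.7 units, and its 5 probe sets ranged from -0.01 to 0.49. Lower were Slc35b3, which carries the sulfate donor PAPS, at 269 and 207 units, and Slc35b4, a carrier of UDP-xylose, with 3 probe sets from -0.73 to -0.32. Slc35f6 read 37.1 and 25.9 units, at least 1.02-fold lower with the second value below background, and its other probe set was below background on both arrays. The carriers of CMP-sialic acid, Slc35a1, and of UDP-N-acetylglucosamine, Slc35a3, differed by 0.09 and 0.07, and that of GDP-fucose, Slc35c1, by -0.21. Of the enzymes that make or use nucleotide sugars 6 were higher and 6 lower, with 1 past 1.5-fold, and the median was 0.03. They include Fut8, the core fucosyltransferase, at -0.65 and Cmas, which activates sialic acid, at 0.37.

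Organic anion carriers held 1 member past 1.5-fold. Slco3a1, which transports prostaglandins and other anions, read 202 and 329.6 units, 1.64-fold higher, and its 3 probe sets lay between 0.66 and 0.84. Slco4a1, a carrier of thyroid hormone, read 158 and 217 units. Slco2a1, the prostaglandin carrier, read 12.8 and 16.5 units, both below background. Slc22a5, the carnitine importer, differed by 0.07, with -0.53 in its other probe set, which was below background on both arrays. The class of 17 had a median of 0.12 with 12 higher, beside 54% higher among all genes at the floor. Of the 12, Slc22a26, Slc22a7, Slc10a6 and Slco2a1 reached the floor only with OX40L-Tg APC, so the rule fixed their sign. With the floor on both arrays the class median was 0.08.

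In the class of peptides, neurotransmitters and residual amino acid carriers 12 of 21 (57.1%) were higher, beside 54% of all genes at the floor. The class median was 0.12. The class held 3 of the 9 members at least 1.5-fold higher, Slc15a3, Slc17a6 and Slc66a1. They are 14.3% of the class, beside 3.85% of all genes at the floor. Slc6a6, the taurine importer, read 663 and 661 units. Slc43a3, a carrier of purine bases, read 353 and 469 units, and Slc43a2, a carrier of large neutral amino acids, 53.4 and 39.4 units. Carriers of sugars, carboxylates and small solutes had a median of -0.03, with 5 of 12 (41.7%) higher, beside 54% of all genes at the floor. Of the 5, Slc45a2 reached the floor only with OX40L-Tg APC, so the rule fixed its sign. Slc37a4, which moves glucose-6-phosphate into the endoplasmic reticulum, read 391 and 407 units, and Slc50a1, a sugar carrier, 369.7 and 367 units. Slc45a4 and Slc37a3 differed by 0.30 and 0.28, the latter below background on both arrays. Slc5a5, the iodide importer of the thyroid, read 22.96 and 14.2 units, also below background. It reached the floor only with Wt APC, so the rule fixed its sign.

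Of the 4 carriers of choline, fatty acids and acetyl-CoA 2 were higher. Slc44a2, a choline carrier, read 3105 and 2960.0 units, and its 3 probe sets ranged from -0.43 to -0.07. Slc33a1, which brings acetyl-CoA into the endoplasmic reticulum, read 218 and 272 units, and Slc27a4, a fatty acid carrier, 53.6 and 57.4 units. Slc27a1, another fatty acid carrier, read 32.9 and 21.9 units, both below background. The rule also took in Slc9a3r1 and Slc9a3r2, which encode scaffolds that bind a sodium-proton exchanger and carry no solute. Slc9a3r1 read 2684 and 2324 units, with 3 probe sets from -0.41 to -0.21. Slc9a3r2 read 16.3 and 18.8 units, both below background, with 3 probe sets at the floor from -0.33 to 0.20.

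Several probe sets per gene give an internal check on these values. Of the 167 members 57 had more than 1 probe set at the floor, and in 23 of those the probe sets differed in sign. Of 16 members with 3 or more such probe sets, 11 had the same sign in each. Slco3a1, Slc25a30, Slc39a14 and Slc12a2 were higher in each of their probe sets at the floor, and Slc35b4, Slc44a2 and Slc9a3r1 were lower in each. Probe sets of 1 gene share the RNA and the array, so they do not measure the spread between cultures.

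**Figure D5:**
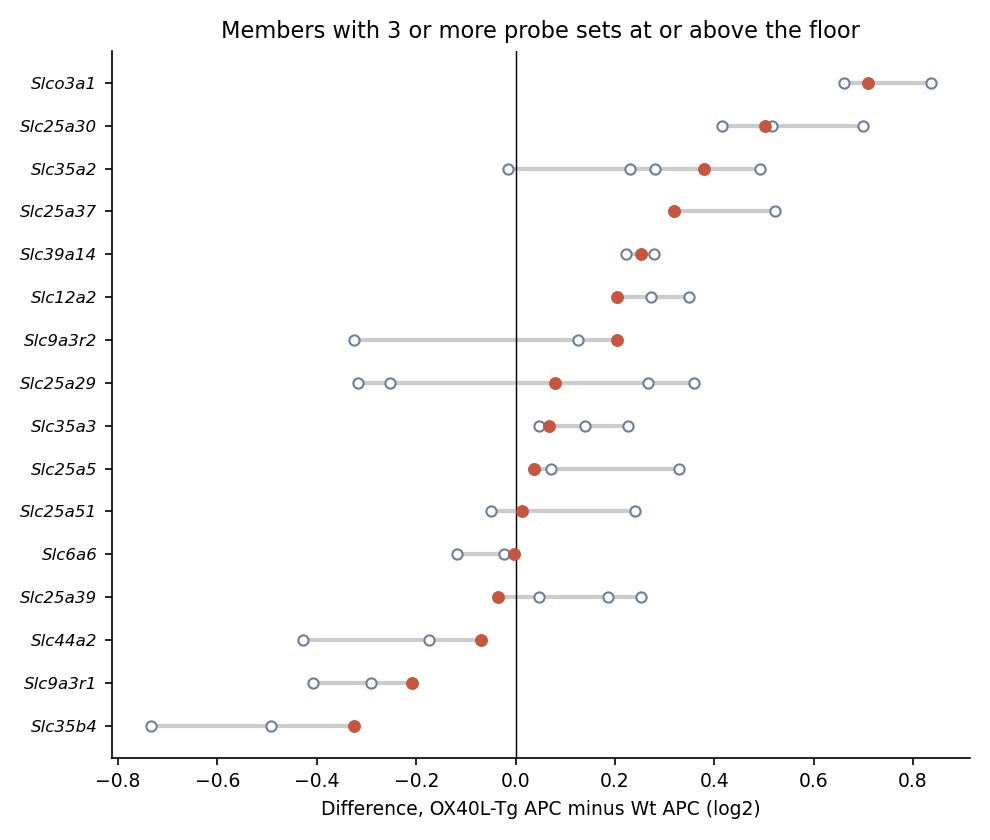
Differences, OX40L-Tg APC minus Wt APC in log2 units, for the 16 members with 3 or more probe sets at the floor. The red point is the probe set used as the gene's value and the open points are the others; in 11 of 16 genes the points all lie on the same side of 0.

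The families left out by the rule showed a similar distribution. Of their 57 genes with a value 27 were at the floor. Of these, 20 (74.1%) read higher with OX40L-Tg APC, beside 54% of all genes at the floor. The median was 0.12, beside 0.09 for the 167 members. In those families 1 gene was at least 2-fold higher and 0 as much lower. The former is 3.70% of the 27, beside 1.56% of all genes at the floor. It was Slc7a3, an importer of arginine and lysine, at 31.01 and 121 units, the first value below background. Slc2a6, at 38.7 and 76.4 units, both above background, differed by 0.98. At the floor itself lay Slc34a2, at 14.9 units on both arrays, Slc29a2, at 14.2 and 14.9 units, and Slc25a35, at 11.4 and 14.9 units. Just outside it were Slc13a2, at 14.5 and 14.4 units, Slc44a1, at 12.1 and 14.5 units, and Slc36a3, at 13.1 and 14.1 units.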

How the data were processed

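The RNA was hybridised to Affymetrix HT MG-430 PM arrays, 1 per group. The deposited file gives 1 linear intensity per probe set, for which the authors used RMA, per the submitters' processing notes. This method corrects background, equalises the arrays and combines probes, so low values are drawn together and a change in total RNA leaves no trace. Its version and the arrays normalized together are not given in the sources used here. Of 45141 probe sets, 28898 had 1 gene symbol in the platform annotation, 551 had several and were not used, and 15692 were not listed. All 167 members matched the RefSeq table (GRCm38.p6) by Entrez number, with 0 symbols changed. A gene took its probe set with the highest mean log2 value. A gene below background on 1 array has its fold given as a lower bound against that array's background level, and below background on both has none. No bound is given where the value of the other array is also below that level.

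Named were the 10 members highest and the 10 lowest in difference, among those whose probe sets at the floor had 1 sign, the 10 with the highest mean level, and the 3 with the largest difference in each class. Other members are examples named after their values were seen. The members, classes and lists were chosen with earlier results of these data known. Python 3.11.15, numpy 2.4.6, pandas 2.3.3, statsmodels 0.14.6 and matplotlib 3.10.9 were used. The counting steps were run on simulated data, with changes larger than 2-fold planted in genes well above the floor. That run checks the calculation only and does not bear on the counts found here. The number of arrays limits the precision.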

Additional observations from a re-analysis of the deposited data

How the results depend on the processing

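With 1 array per group, no replicate could be left out, and no paired analysis was possible because each group has 1 array. The 8 alternatives gave medians of all members between 0.04 and 0.12. With the 75th percentile as the floor, the counts were 1 and 0 members at least 2-fold higher and lower, and 4 and 1 at 1.5-fold. The members at least 2-fold and 1.5-fold lower were 0 and 3 with the floor on both arrays, 0 and 2 above the organ-restricted level, and 0 and 1 with log2(value + 16). Medians that moved by 0.1 or more were those of the adaptors (-0.30 with the mean over probe sets, -0.21 with the 75th percentile and above the organ-restricted level, -0.12 with no floor), of choline and fatty acids (0.12 with the 75th percentile, -0.17 without shared probe sets), of inorganic ions (0.20 with the 75th percentile), of nucleosides and vitamins (-0.12 with no floor, -0.16 without shared probe sets), of organic anions (-0.014 with no floor), and of peptides and neurotransmitters (0.33 with the 75th percentile, 0.32 above the organ-restricted level, 0.013 with no floor). Slc49a4, alone in its class, was at 0.77 with log2(value + 16) and so under 2-fold, as was Slc46a3 at -0.45; Slc17a6 was at 1.08 with the mean over its probe sets. A lowess correction kept the sign of each class median. Of 741 single-gene comparisons, 696 moved by under 0.1 and 13 changed sign. The settings that add 16 units or change the floor act on low values by construction; the cause of the other moves was not tested.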
